A study of Mus musculus with 4 samples.

Results

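The RAW264.7 line consists of mouse macrophages that can turn into osteoclasts. Its RNA was compared between the culture titled pre-osteoclast, after 24 h under RANKL (100 ng/ml) with M-CSF (50 ng/ml), and the culture titled monocyte, at the start of induction (0 h). Each culture was measured on 1 array of a mouse lncRNA design that also carries mRNA probes. The comparison takes the transcripts called well above background by the scanner software on both arrays, which left 34365 of the 60804 in the deposited table. Values are log2 signals as quantile normalized by the authors, so a difference of 1 is a 2-fold change. RAW264.7 is a transformed line, and the labels name no separate cultures at a time point. No p-value is given, because 1 array stood for each time point. The error given with a change is that of Feature Extraction's own model for spot noise, combined over both arrays. It ran from 0.20 to 0.52 on the log2 scale with a median of 0.21, and it does not hold the spread between cultures.

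RANKL is the cytokine that drives macrophage precursors towards the osteoclast, the cell that resorbs bone, through its receptor RANK, NF-kappaB and the transcription factor NFATc1. M-CSF keeps these precursors alive. Long noncoding RNAs (lncRNAs) are sorted by their position relative to protein-coding genes. Intergenic lncRNAs lie apart from them, and exon sense-overlapping lncRNAs share exon sequence and strand with a coding gene and usually carry its symbol. Natural antisense lncRNAs overlap exons of a gene on the other strand, and intronic antisense lncRNAs lie across from an intron. Bidirectional lncRNAs start close to a coding gene and run away from it, and intron sense-overlapping lncRNAs lie in an intron on the same strand. Names and classes come from lists in the study's supplement, and mRNA probes carry no name in the files used here. Osteoclast and macrophage marker mRNAs such as those of cathepsin K, TRAP or F4/80 were therefore not checked against the cell labels.

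Slide 1 carried the arrays of 0 and 72 h and slide 2 those of 24 and 96 h. The time step from 0 h to 24 h thus crosses slides, and slide and time cannot be told apart in it. Levels on the other arrays are given beside the changes for this reason. The median absolute change over all 34365 transcripts was 0.32 from 0 h to 24 h. It was 0.32 between the arrays of slide 1 and 0.31 between those of slide 2, but 0.47 between those of 24 h and 72 h, which also lie on different slides. Around the spots the median background intensity was 33.0 at 0 h and 26.0 at 24 h, and 0 spots were saturated on either array.

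After 24 h the level of 758 transcripts (2.21%) was higher by 2-fold or more, and that of 1912 (5.56%) lower by as much, with a median change of 0.12 over all transcripts. Higher transcripts were dim at the start, with a median level of 6.14 at 0 h and 7.60 at 24 h. Lower transcripts were bright, with a median of 10.73 at 0 h and 9.15 at 24 h. On the other arrays the higher transcripts had medians of 6.39 at 72 h and 7.03 at 96 h, and the lower ones 10.56 at 72 h and 9.49 at 96 h. Both sets thus had a 72 h median near that of 0 h, on the same slide. Of the 758 higher transcripts 527 (69.5%) were higher on both arrays of slide 2 than on both arrays of slide 1, against 27.7% of all transcripts. Of the 1912 lower ones 1581 (82.7%) were lower on both arrays of slide 2, against 18.4% of all. The choice on 0 h and 24 h fixes part of these shares, and the part of the slide in them was not tested. In a bulk sample a lower signal can come from fewer cells with a transcript or from less of it per cell, which cannot be told apart. Where the 2-fold limit had to be passed by a further 2 within-array errors, 175 higher and 985 lower transcripts were left. With the background corrected by normexp in place of the scanner software's method, 229 were higher and 1436 lower, so the higher share of all changed transcripts moved from 28.4% to 13.8%.

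The split between directions followed the signal level. Among the dimmest 25% of transcripts, with a mean level from 5.05 to 6.72, 339 transcripts (3.95%) were at least 2-fold higher and 215 (2.5%) lower. In the next groups of the same size these numbers were 257 and 389, then 102 and 530. Among the brightest 25%, from 10.86 to 19.13, 60 (0.698%) were higher and 778 (9.06%) lower. Most of the brightest transcripts nevertheless lay above 0, with a median change of 0.20. The median within-array error was 0.30 in the dimmest group and 0.20 in the brightest, so a bright change stood on less spot noise. The lowest level called well above background was 4.81 at 0 h and 5.17 at 24 h. A transcript too dim on either array was left out, so the filter fixes part of the counts at the dim end.

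**Figure D1:**
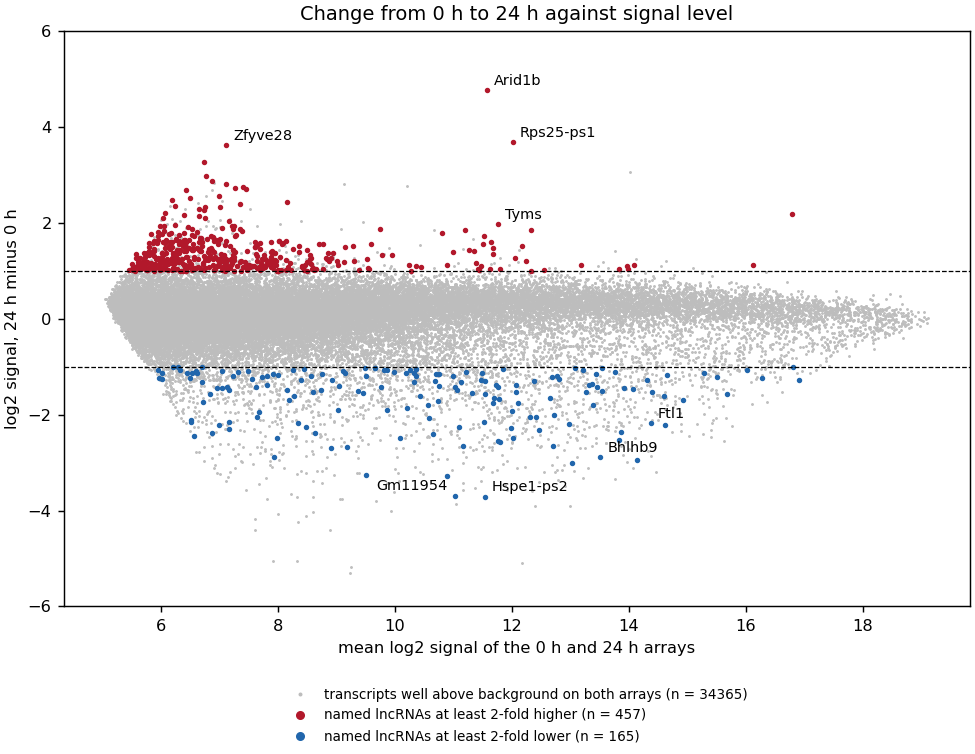
Each point is 1 transcript, with its mean log2 signal over the 0 h and 24 h arrays on the horizontal axis and its log2 change on the vertical axis. Dashed lines mark 2-fold, and 1 unnamed transcript with a change of 12.88 lies outside the plotted range. Higher named lncRNAs crowd at the dim end, while lower ones spread over the whole range.

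**Figure D2:**
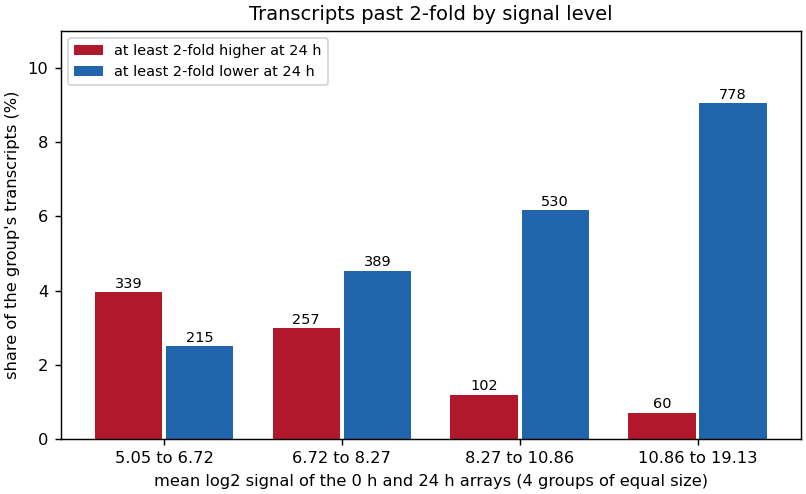
Bars give, for 4 groups of equal size by mean log2 signal, the share of transcripts that were at least 2-fold higher (red) or lower (blue) at 24 h, with their number above each bar. The higher share went from 3.95% in the dimmest group to 0.698% in the brightest, and the lower share from 2.5% to 9.06%.

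A name was found for 1733 of the 34365 transcripts (5.04%), of which 951 carry a gene symbol and 782 only a catalogue or accession name. These names were chosen by the study on fold changes of the same arrays, so their counts describe the lists and are no evidence of a direction. The list of lncRNAs higher at 24 h is nearly whole, and named 457 of the 758 higher transcripts (60.3%). Of the list of lower ones, only the first part was used here, and with 21 names that came from the 72 h and 96 h lists alone it named 165 of 1912 (8.63%). The remaining 1111 named lncRNAs changed by less than 2-fold. Names found only in the later lists numbered 1132, with a median change of 0.28 at 24 h. These were listed against the same 0 h array, nearly all as higher than it. The later lists used here held 1608 and 1675 probes of lncRNAs higher at 72 h and 96 h. Only 45 probes came from a list of lower lncRNAs, that of 72 h. A choice for values above the 0 h array can raise this median, which was not tested.

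Intergenic lncRNAs were the most numerous in both directions, and also among all 1733 named lncRNAs, of which they were 758. Of 758 named intergenic lncRNAs 206 were at least 2-fold higher and 96 lower, which is 45.1% of the named higher and 58.2% of the named lower transcripts. Exon sense-overlapping lncRNAs followed with 148 higher and 37 lower of 501, and natural antisense lncRNAs with 64 higher and 9 lower of 228. Intronic antisense lncRNAs had 28 higher and 13 lower of 111, and bidirectional lncRNAs 17 higher and 4 lower of 124. Intron sense-overlapping lncRNAs were few, with 3 higher and 7 lower of 32. A probe with 2 classes counts in each. In every class the median 0 h level of the higher lncRNAs was low, between 5.81 and 6.42, and that of the lower lncRNAs high, between 10.40 and 12.22. The median size of a change was alike across classes, from 1.15 to 1.48 among the higher and from -1.07 to -1.57 among the lower. Changes past 4-fold were seen for 9 higher and 28 lower intergenic lncRNAs, and for 7 of the 28 higher intronic antisense lncRNAs.

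**Figure D3:**
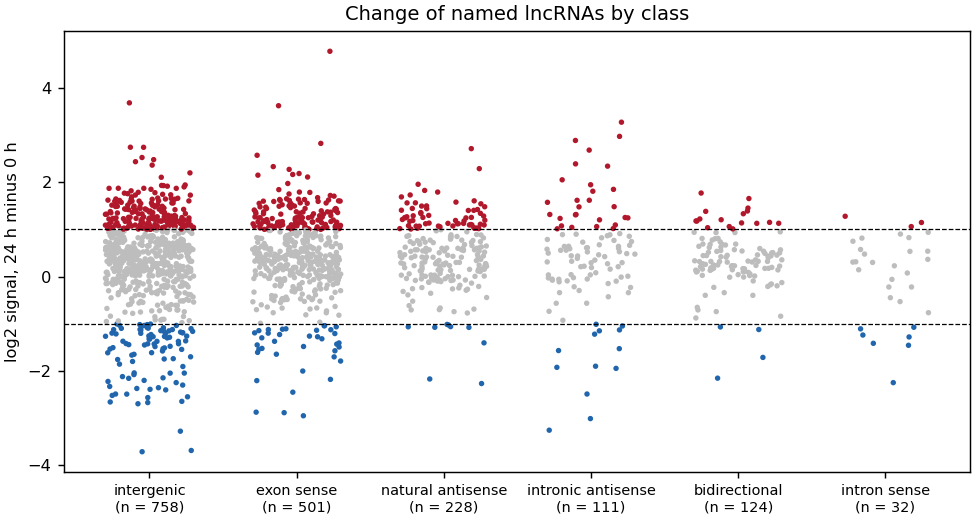
Each point is 1 named lncRNA, placed by its class on the horizontal axis, with its log2 change from 0 h to 24 h on the vertical axis. Red points were at least 2-fold higher, blue points at least 2-fold lower, and dashed lines mark the limit. Arid1b, with a change of 4.78, stands above all other named lncRNAs.

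The probes of the lncRNAs with the largest higher value among those of each class that have a gene symbol are printed to show what the array measured. Each line gives a probe of 60 bases, 5′ to 3′, as listed by the study, and none holds capitals because no stretch of it was singled out.
Arid1b (exon sense-overlapping, chromosome 17): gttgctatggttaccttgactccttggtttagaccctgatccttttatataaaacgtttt
Rps25-ps1 (intergenic, chromosome 6): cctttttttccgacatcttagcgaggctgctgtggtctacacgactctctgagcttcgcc
Gm12239 (intronic antisense, chromosome 11): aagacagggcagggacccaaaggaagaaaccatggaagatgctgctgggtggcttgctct
Gm17098 (natural antisense, chromosome 9): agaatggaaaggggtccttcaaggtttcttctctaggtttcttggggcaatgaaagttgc
Gm20675 (bidirectional, chromosome 14): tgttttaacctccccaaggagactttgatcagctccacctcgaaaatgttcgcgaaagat
Gm16352 (intron sense-overlapping, chromosome 8): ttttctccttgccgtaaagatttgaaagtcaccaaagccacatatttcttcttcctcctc
Their GC contents ran from 36.7% for Arid1b to 55.0% for Gm12239.

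Among exon sense-overlapping lncRNAs the noncoding transcript ENSMUST00000146703 of Arid1b stood first. Arid1b encodes a DNA-binding subunit of the BAF chromatin remodelling complex, and this transcript spans chr17:5040578-5127640 on GRCm38, inside the gene. Its level was 9.18 at 0 h and 13.96 at 24 h, a change of 4.78 ± 0.20 (within-array error), but 9.24 at 72 h and 9.25 at 96 h. The high value was thus that of the 24 h array alone, and it rests on 1 spot there. The transcript of Zfyve28, a FYVE-domain protein that binds endosomal lipid, went from 5.30 to 8.92 and stood at 6.98 at 96 h. Mill2, an MHC class I-like gene, went from 5.70 to 8.53, with 6.14 at 72 h and 5.85 at 96 h. Atpaf2, an assembly factor of the mitochondrial ATP synthase, went from 5.71 to 8.28, and Fam219a from 5.84 to 8.17. Of these 5 transcripts all but that of Zfyve28 lay within 2-fold of their 0 h level at 96 h. The changes of Zfyve28, Mill2, Atpaf2 and Fam219a were 3.62, 2.82, 2.57 and 2.33. With normexp they shrank to 1.92, 1.80, 1.56 and 1.42, still past 2-fold, while that of Arid1b was 4.74.

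Tyms and Stoml2 are host genes of bright exon sense-overlapping lncRNAs that, unlike that of Arid1b, were high at 96 h too. The transcript of Tyms, the thymidylate synthase of DNA synthesis, went from 10.77 at 0 h to 12.74 at 24 h, with 11.01 at 72 h and 13.16 at 96 h. Stoml2, a stomatin-like protein of the inner mitochondrial membrane, went from 10.85 to 12.45, with 10.67 at 72 h and 12.50 at 96 h. Both were high on slide 2 and low on slide 1. The brightest named lncRNA with a higher value carries only the accession AK202516 and was picked after its values were seen. It lies in P4hb, the gene of protein disulfide isomerase, went from 15.70 to 17.88 and stayed at 17.65 and 17.62 at 72 h and 96 h. Its probe is listed as cross-hybridising with an mRNA, and its class shares exon sequence with the host gene. Whether the probe reads this lncRNA or mRNA was not tested.

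Lower exon sense-overlapping lncRNAs included those of Bhlhb9, Morf4l2 and Ftl1. Bhlhb9, an X-linked gene also known as Gprasp3, had a transcript at 14.95 at 0 h and 12.07 at 24 h, a log2 change of -2.88 ± 0.20, with 14.48 at 72 h and 12.86 at 96 h. Morf4l2, an X-linked relative of the MRG15 chromatin protein, had one at 7.79 and 5.34 with a log2 change of -2.45 ± 0.38, which was -0.80 with normexp. That of Ftl1, the ferritin light chain, which stores iron, had 15.46 at 0 h and 13.29 at 24 h, with 14.37 at 72 h and 14.34 at 96 h. The 24 h array held the lowest level of Ftl1 and of Bhlhb9 among the arrays.

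Among intergenic lncRNAs with a gene symbol, the single largest rise and the largest falls were those of pseudogenes, copies of genes that no longer encode the protein. Rps25-ps1, a pseudogene of a small ribosomal subunit protein at chr6:145266327-145266825, was at 10.17 at 0 h and 13.86 at 24 h, and at 13.38 and 13.81 at 72 h and 96 h. It was therefore high on both slides after 0 h, with a change of 3.68 ± 0.20 at 24 h. Gm2762 went from 6.03 to 8.77, Gm11763 from 4.95 to 7.43, 1700024F13Rik from 6.09 to 7.99 and Gm14321, 87103 bases from Cebpb, from 6.29 to 8.17. The probe of Gm2762 is listed as cross-hybridising with another transcript, and Gm2762 overlaps the RefSeq coding gene Gm38564 though listed as intergenic. Gm7211, another pseudogene and one of the brighter higher members, went from 10.27 to 12.12, with 9.74 at 72 h and 12.05 at 96 h.

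Lower intergenic lncRNAs were brighter and changed further. Hspe1-ps2, a pseudogene of the mitochondrial chaperonin Hsp10, was at 13.39, 9.68, 13.08 and 10.01 at 0, 24, 72 and 96 h. Gm11954 was at 12.87, 9.19, 12.43 and 8.68, and Gm11270 at 12.53, 9.26, 12.47 and 8.97, in the same order. Their log2 changes at 24 h were -3.71, -3.69 and -3.28, each with an error of 0.20 or 0.21. For all 3 the arrays of slide 1 lay more than 2-fold above those of slide 2. Though listed as intergenic, Hspe1-ps2 overlaps the RefSeq coding genes Cox16 and Gm20498, and Gm11270 overlaps Gpx6, with strand not considered.

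Natural antisense lncRNAs with the largest higher values were dim. Gm17098, which overlaps Aph1c, a gamma-secretase subunit, went from 6.10 to 8.81, and 8030451A03Rik, which overlaps the matrix gene Tnc, from 5.51 to 7.79. At 72 h and 96 h Gm17098 was at 6.07 and 5.99, and 8030451A03Rik at 5.99 on both, so only their 24 h level stood apart. 9430091E24Rik, across Pdpr, went from 5.82 to 7.51, and C230038L03Rik, across Nars2, from 6.91 to 8.48. A brighter member is the transcript of Gba2, the non-lysosomal glucosylceramidase, which also overlaps Creb3 and went from 9.91 to 11.70, with 10.05 at 72 h and 11.81 at 96 h. The largest fall of the class was a log2 change of -2.27, while its lower members with a gene symbol were close to the limit. The transcript of Oprm1 had a log2 change of -1.06, or -0.94 with normexp, and 1810062O18Rik one of -1.03.

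The lncRNA 1810062O18Rik has 3 probes among the transcripts measured, and they did not move together. The probe with the change of -1.03 lay at 13.60 and 12.57, and is listed as cross-hybridising with another transcript. The other probes are shown because they share a run of 51 bases, in capitals, and differ only in the first bases. They span different splice junctions, but whether each reads only its own transcript was not tested.
1810062O18Rik (ENSMUST00000124940): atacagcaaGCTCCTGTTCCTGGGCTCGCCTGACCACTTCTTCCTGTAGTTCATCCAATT
1810062O18Rik (ENSMUST00000128848): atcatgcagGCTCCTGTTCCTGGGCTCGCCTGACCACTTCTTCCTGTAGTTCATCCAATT
The first was at 8.47 at 0 h and 9.21 at 24 h, and the second at 8.75 and 8.46, so that the changes were 0.74 and -0.29. Of 11 genes with several named probes, 8 had changes of 1 sign over their probes, and the range within a gene had a median of 0.81 and reached 1.92.

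Intronic antisense lncRNAs held 5 higher members past 4-fold with a symbol. Gm12239, which overlaps Nmur2, went from 5.10 to 8.37, and Gm15523, in Asb2, from 5.28 to 8.25. Gm11025 in Mipol1 went from 5.43 to 8.32, Gm14097 in Shld1 from 5.57 to 7.92, and Gm20493 in H2-DMa, which encodes a chaperone of MHC class II peptide loading, from 6.14 to 8.20. All were dim at 0 h, and of the 5 only Gm11025 was as high at 96 h, at 8.16. The 3 largest lower members were again pseudogenes. Gm15715 in Pmpcb was at 11.14 and 7.88, Gm12607 in Mtap at 14.54 and 11.53, and Gm15974 in L3mbtl4 at 9.23 and 6.74. Gm12607 was at 14.69 at 72 h and 11.38 at 96 h, a split by slide.

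No bidirectional lncRNA was 4-fold higher. Gm20675, which starts 163 bases from Ebf2, went from 6.09 to 7.54, with 5.99 at 72 h and 7.30 at 96 h. Mkln1os, 75 bases from Mkln1, went from 8.41 to 9.61 and Gm11608, whose span overlaps the RefSeq gene Zdbf2, from 5.84 to 6.97. Atad3aos, 67 bases from the mitochondrial ATPase gene Atad3a, has 2 probes, with changes of 1.14 ± 0.32 and 0.33 ± 0.21. Of the 4 lower members only F730043M19Rik has a gene symbol by the rule used, and the other names were taken up after their values were seen. F730043M19Rik, whose span overlaps the RefSeq gene Atxn7l1, had a log2 change of -1.12 on one probe and of 0.64 on another. The probe with the lower value is listed as cross-hybridising with another transcript. AK158719, 789 bases from Efhd2, had a log2 change of -2.15, and AI314831, 126 bases from Wt1, one of -1.07. With normexp the changes of Gm20675, Gm11608, the first Atad3aos probe and AI314831 were 0.92, 0.62, 0.60 and -0.55, all inside 2-fold.

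Only 3 intron sense-overlapping lncRNAs were higher, of which 2 have a gene symbol. Gm16352, in the cytoskeletal adaptor gene Sorbs2, went from 8.18 to 9.46, and Gm12985, in the kinase gene Rps6ka1, from 5.17 to 6.23. With normexp their changes were 0.95 and 0.34, inside 2-fold. Gm12583 in Adad1 was at 12.22 and 9.98, and Gm16219 in Gm5134 at 14.80 and 13.34. At 72 h both were nearer to 0 h, at 12.35 and 14.27, and at 96 h nearer to 24 h, at 9.78 and 13.32.

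**Figure D4:**
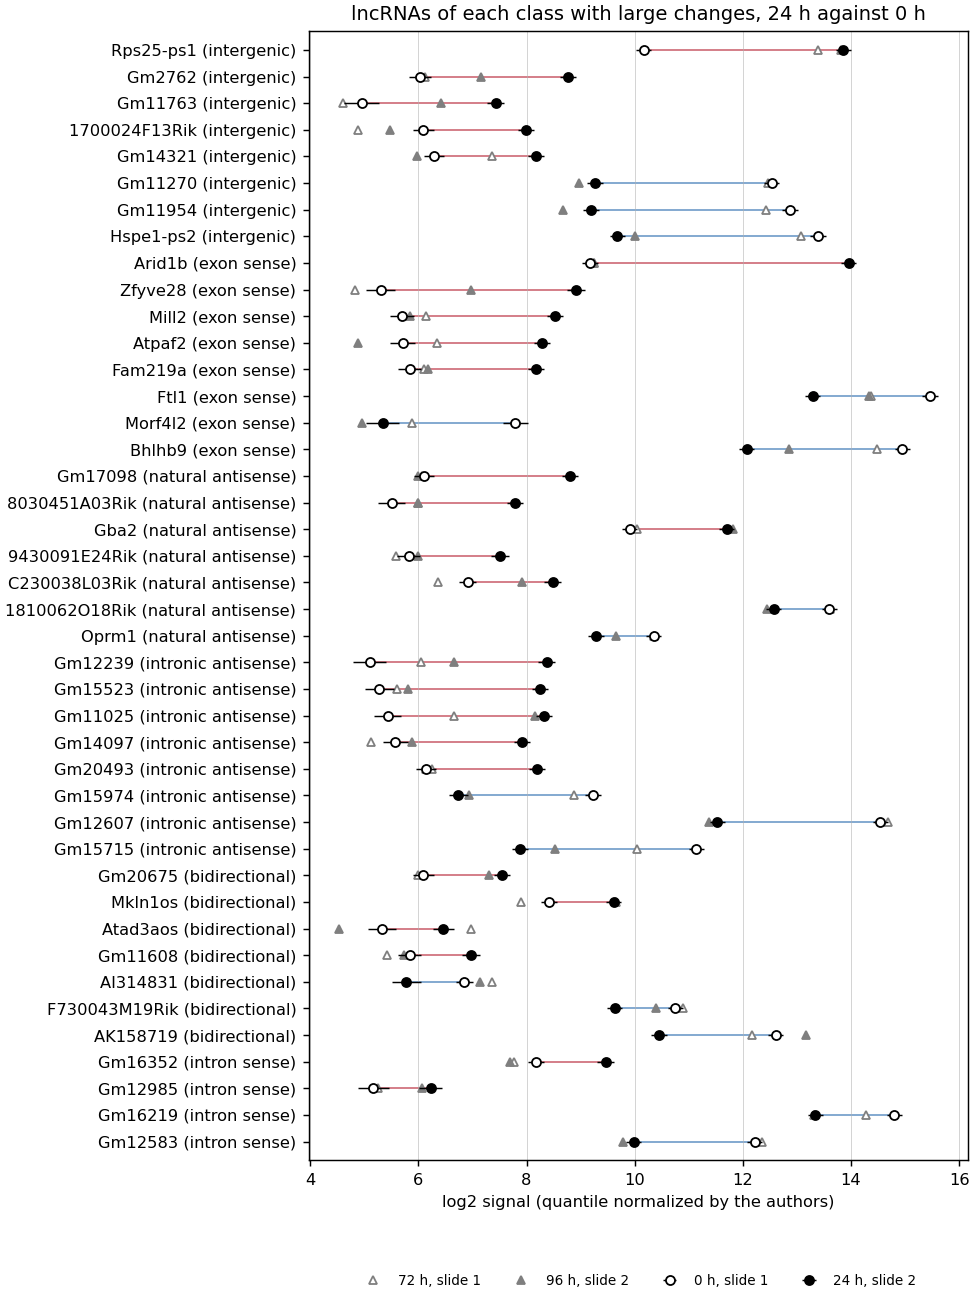
Rows are lncRNAs of each class with the largest changes among those reported here, and the horizontal axis is the log2 signal. Open circles are 0 h and filled circles 24 h, with bars for the within-array error, and triangles are 72 h (open) and 96 h (filled), open symbols lying on slide 1. For Hspe1-ps2, Gm11954, Gm11270 and Gm12607 the open symbols lie together on the right and the filled ones on the left, while for Arid1b only the 24 h symbol stands apart.

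Among the named lncRNAs, pseudogenes made up a larger share of the lower ones than of the higher ones. A RefSeq gene was matched for 97 of the 165 named lower lncRNAs, and 47 of these (48.5%) were pseudogenes. Among the higher ones these were 20 of 228 (8.77%), and among those within 2-fold 37 of 490 (7.55%). The lower pseudogenes had a median level of 12.22 at 0 h and 10.05 at 24 h, 26 of them lay in the brightest 25% of all transcripts, and 38 had 1 exon. The median RNA length was 719 bases for the lower named lncRNAs, 984 for the higher and 1350 for those within 2-fold. Of the lower ones 23 (13.9%) lay on chromosome X, against 18 (3.94%) of the higher and 38 (3.42%) of those within 2-fold. These shares describe the lists, of which the lower one was used in part, and were not tested. Listed cross-hybridisation was as rare in the lower (5.45%) as in the higher lncRNAs (5.25%).

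Pseudogene probes can hold sequence of related copies. The probes of Hspe1-ps2 and of Gm6462, a pseudogene on chromosome 1 picked because of this match, share a run of 24 bases, which is printed in capitals.
Hspe1-ps2 (chromosome 12): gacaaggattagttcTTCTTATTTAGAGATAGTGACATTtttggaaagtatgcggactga
Gm6462 (chromosome 1): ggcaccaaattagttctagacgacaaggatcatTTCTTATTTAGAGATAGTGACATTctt
Gm6462 was at 15.77, 14.08, 15.38 and 14.07 at 0, 24, 72 and 96 h. Both probes were lower on slide 2, Hspe1-ps2 by a log2 change of -3.71 at 24 h and Gm6462 by one of -1.70. Whether these probes read the pseudogenes or RNA of a related gene was not tested.

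Host genes were also read by lists of genes that bear on osteoclasts and macrophages. A gene entered with the noncoding transcripts that the study's lists name, so the mRNA itself is not counted. The gene lists were drawn up knowing which genes the study's lists hold. Names covered 457 of the 758 higher transcripts but only 165 of the 1912 lower ones, so few falls could enter. A gene list without a lower member therefore does not show that its genes held their level. The background is 2.21% higher, 5.56% lower and a median of 0.12 over all transcripts, and a median of 0.28 over those named by the later lists alone. Those later lists hold nearly only lncRNAs that were higher at 72 h or 96 h than at 0 h. They alone named 8 of the 9 osteoclast members, 12 of the 14 macrophage members and 15 of the 17 stress response members below. In the ribosomal and translation list it was 5 of 10. The part of this choice in the list medians was not tested. Members come only from the 1733 named transcripts, of which 457 were higher and 165 lower. The counts of a gene list are to be read beside these named counts, since the study chose the names on fold changes.

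Of 34 osteoclast and RANKL signalling genes 10 had a named noncoding transcript, of which 9 were measured on both arrays. None was at least 2-fold higher and 1 was lower, with a median change of 0.35. That of Mmp9, the gelatinase osteoclasts secrete, was at 8.90, 7.42, 6.35 and 8.06 at 0, 24, 72 and 96 h. The transcript of Map3k8, a kinase of the NF-kappaB pathway, had a change of 0.52, and those of Bcl6 and Irf8, which repress osteoclast genes, 0.74 and 0.35. Ppargc1b and Atp6v0a4, a coactivator of mitochondrial genes and a subunit of the proton pump, had changes of -0.47 and -0.37. Slc9b2, a sodium-proton exchanger known from osteoclasts, had one of 0.31.

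Of 14 measured transcripts of macrophage and myeloid genes 2 were higher and 0 lower, with a median of 0.12. Plac8 went from 5.68 to 7.18, and Slc15a3, a lysosomal transporter of small peptides, from 8.22 to 9.47. With normexp both lay inside 2-fold, at changes of 0.88 and 0.99. Members such as Lair1 (-0.65), Pstpip1 (-0.73), Clec12a (-0.30) and Cd200r1 (0.23) lay within 2-fold. Of 13 inflammatory and NF-kappaB response genes only Clcf1, a cytokine of the IL-6 family, passed 2-fold, from 6.51 to 7.95. The transcript listed as IkappaB-zeta had a change of 0.89, that of the chemokine Ccl4 0.61 and that of Socs3 0.52, and the median was 0.51.

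Interferon response and antigen presentation genes had 2 higher and 0 lower of 12, with a median of 0.62. Besides Mill2 this was Gbp3, an interferon-induced GTPase, from 5.65 to 6.86. Trafd1, Oas1g, Ifi44 and H2-T23 had changes of 0.91, 0.84, 0.82 and 0.71, all inside 2-fold. Amino acid and stress response genes had 2 higher and 0 lower of 17, with a median of 0.43. Dnajb11, a chaperone of the endoplasmic reticulum, went from 13.53 to 14.65, and Hsph1, a cytosolic heat shock protein, from 5.28 to 6.39. With normexp the changes of Gbp3 and Hsph1 were 0.68 and 0.56, inside 2-fold.

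Lysosome, protease and iron genes moved both ways, with 3 higher and 3 lower of 13 and a median of 0.37. Gba2, Mmp11, a matrix protease, and Trf, the iron carrier transferrin, had changes of 1.79, 1.56 and 1.01, that of Trf being 0.62 with normexp. Gba2 counts here because the list holds it, although its enzyme is non-lysosomal. Ftl1, Mmp9 and M6pr-ps, a pseudogene of a mannose 6-phosphate receptor, had changes of -2.18, -1.48 and -1.01. M6pr-ps was among the brightest of all, at 17.31 and 16.31. The noncoding transcript of the ferritin heavy chain gene Fth1 had a change of -0.47.

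Chromatin regulators had 3 higher and 2 lower of 13, with a median of 0.25. Besides Arid1b, Phf21a, a reader of unmethylated histone H3, went from 5.06 to 6.69, and Pcgf3, a Polycomb subunit, from 5.49 to 7.11. With normexp these had changes of 0.81 and 0.74 and Morf4l2, one of the lower members, -0.80, so of the calls in this list those of Arid1b and Setd1b were left. Setd1b, a histone H3 methyltransferase, had a bright transcript at 14.64 and 13.19, a log2 change of -1.45 ± 0.20. Ribosomal protein and translation genes had 3 higher and 2 lower of 10, with a median of 0.33. Mrpl17, of the mitochondrial ribosome, went from 10.55 to 11.98 and a transcript of Rpl26 from 6.48 to 7.72, a change of 0.89 with normexp. The pseudogenes Rpl31-ps4 and Rpl31-ps24 were at 13.08 and 8.65 at 0 h and at 10.52 and 6.71 at 24 h.

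Of 18 probes for lncRNAs with a name of their own 4 were higher and 1 lower, with a median of 0.39. The probes of Rian, a maternally expressed lncRNA of the Dlk1-Dio3 domain, went from 5.41 to 6.64 and from 5.83 to 6.95. Airn, the antisense RNA that silences Igf2r on the paternal chromosome, was at 10.88 and 9.84, a log2 change of -1.05 ± 0.20, but at 12.27 at 96 h. Its probe is listed as cross-hybridising with another transcript. With normexp the probes of Rian had changes of 0.48 and 0.77 and Airn one of -0.92, all inside 2-fold. Snhg1, a snoRNA host gene, had a change of 0.41, Tug1 0.50 and Dleu2 0.66.

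Transcripts of T and B cells were followed as markers of other cell types. Of 8 measured, 2 were higher and 1 lower, with a median of 0.65. The dimmest probe listed as TCRA went from 5.13 to 6.90, while the others listed under this name had changes of 0.96 and 0.67. TCR-beta chain went from 5.13 to 6.46 and Il2ra, which activated macrophages also express, from 7.90 to 6.41. Probes for immunoglobulin heavy chain, V00821 and M13680, had changes of 0.63 and 0.38. Of 10 measured olfactory and vomeronasal receptor entries, Vmn2r-ps83 and Vmn1r-ps46 were higher, with changes of 1.56 and 1.07, and the median was 0.39. With normexp the calls of this paragraph ended, with changes of 0.88 for TCRA, 0.65 for TCR-beta chain, -0.84 for Il2ra, 0.80 for Vmn2r-ps83 and 0.40 for Vmn1r-ps46.

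**Figure D5:**
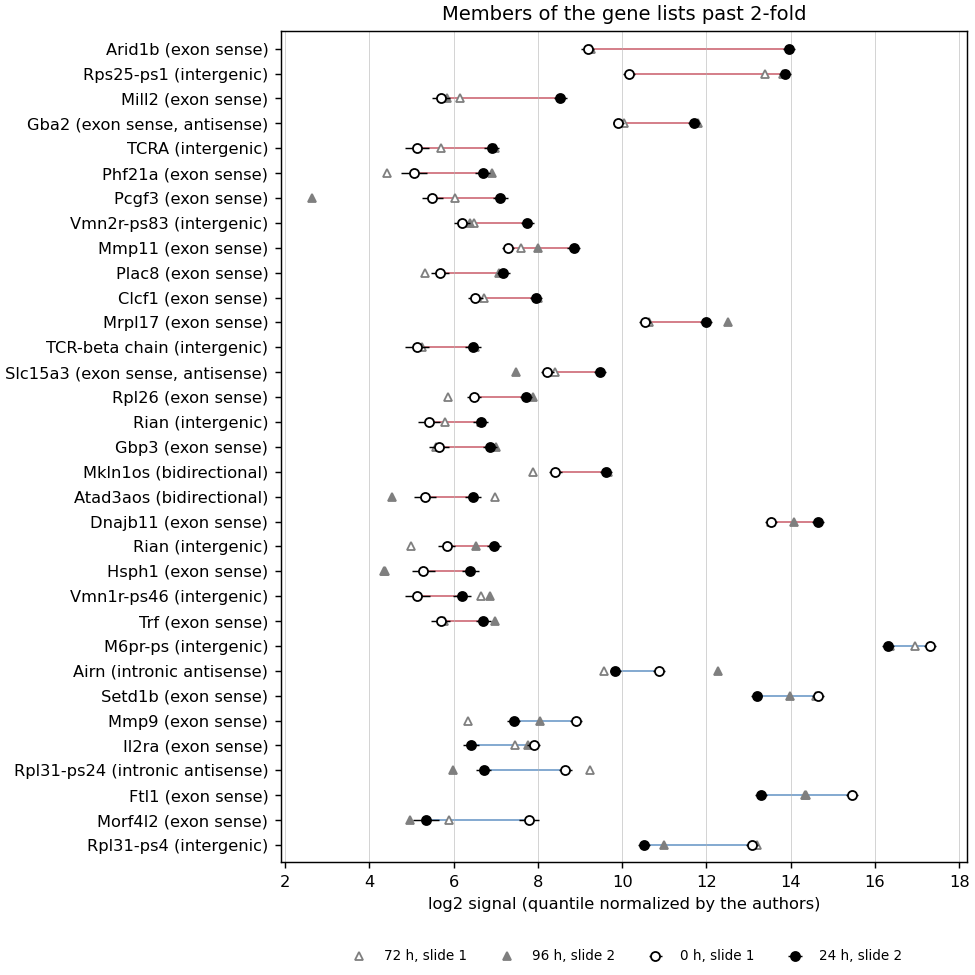
Rows are the transcripts of the gene lists that passed 2-fold, from the largest higher to the largest lower change, and the horizontal axis is the log2 signal. Circles are 0 h (open) and 24 h (filled) with within-array errors, and triangles 72 h (open) and 96 h (filled). Most higher members started below 8 at 0 h, though Dnajb11 started at 13.53. Of the lower members Setd1b, Ftl1, Rpl31-ps4 and M6pr-ps lay above 13 at 0 h. The other lower members lay between 7.79 (Morf4l2) and 10.88 (Airn) at 0 h.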

How the data were processed

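Total RNA of 4 RAW264.7 cultures (0, 24, 72 and 96 h) was depleted of ribosomal RNA, labelled with Cy3 and hybridised to 1 array each. Per the file headers, version 11.0.1.1 of Agilent Feature Extraction read the spots. The log2 values deposited by the authors are quantile normalized over the 4 arrays. The deposited scanner intensities, processed and median signals, gave the spot errors and the alternatives. The log2 values recomputed from them differed from the deposited ones by at most 0.03. Transcripts well above background at 0 h and at 24 h were kept after outlier spots (72 and 38) were left out. Precision is limited by the number of arrays and by signal over background, not by a depth.

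Names, classes, coordinates and probe sequences came from the supplementary lncRNA lists, whose fold changes were not used. The lists' coordinates overlapped the GRCm38 RefSeq gene of the same symbol for 760 of 767 lncRNAs, and their starts, counted from 0, were raised by 1. Overlapping and nearest coding genes are RefSeq genes on GRCm38.

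The rule for named lncRNAs takes, among gene symbols, the 5 largest rises and 3 largest falls past 2-fold in each of 6 classes, up to 5 members past 2-fold of each of 11 gene lists, and the 5 largest rises and falls in the brightest 25%. Names outside it are marked as such, and a few lncRNAs and genes that it names are not reported here. The comparison, its lists and this rule were chosen with earlier results of these data known. Counting was tested on simulated data. Alternatives were own quantile normalization, scaling to the 75th percentile or to the median of detected probes, cyclic loess and normexp with an offset of 50 (limma 3.58.1, R 4.3.3), 3 other filters, limits of 1.5-fold and 4-fold, and leaving out probes with listed cross-hybridisation or with 2 classes. Python 3.11.15, numpy 2.4.6, pandas 2.3.3, scipy 1.17.1 and matplotlib 3.10.9 were used.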

Additional observations from a re-analysis of the deposited data

How the results depend on the processing

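The main counts were 758 higher and 1912 lower transcripts, 457 and 144 named lncRNAs of the 24 h lists, and 9.06% lower transcripts in the brightest 25%. With normexp 229 transcripts and 132 named lncRNAs were higher. Without the need for both arrays to be above background 1762 were higher and 3307 lower, with 1123 and 218 named. Among transcripts at or above the median signal 162 were higher, 80 of them named, and the brightest 25% held 7.70% lower. Cyclic loess gave 10.5% there. The limit of 1.5-fold gave 3620 higher and 4086 lower, and the limit of 4-fold 51 and 467. The share of higher transcripts among those past the limit was 28.4% as reported, 13.8% with normexp, 47.0% at 1.5-fold and 9.85% at 4-fold. The other alternatives moved none of these counts by over 1.5 times. The changes of all 74 named transcripts kept their sign under the 5 other normalizations and backgrounds, and 50 of them stayed past 2-fold with normexp, whose offset shrinks the changes of dim spots. No replicate could be left out. No paired analysis was possible because each time point has 1 array and the slides hold no time point in common.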

Other observations

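The largest change belonged to a transcript with no name here, which stood at 5.54, 18.42, 3.87 and 4.58 at 0, 24, 72 and 96 h. As for Arid1b, the value apart was that of the 24 h array alone. The transcript with the most negative log2 change, -5.29, had no name either, and stood at 11.88 at 0 h against 6.59, 6.30 and 6.63 on the later arrays, which lie on both slides.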
